A study of Mus musculus with 4 samples.

Results

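Lysosomal proteases and their partners were followed through the wound as a family of 10 genes: the proteases Ctsb, Ctsl, Ctss, Ctsz, Ctsd and Lgmn, their lipid-handling partners Psap and Npc2, and the membrane proteins Cd63 and Lamp1. They were chosen by symbol, make up 10 of the 31053 genes in the deposited count matrices, and each symbol matched 1 gene. Single-cell RNA sequencing, in which a unique molecular identifier (UMI) marks each captured transcript, had been run on live CD45+ immune cells sorted from 3 mm punch wounds of the skin of 8-week-old male C57BL6/J mice. There were 4 groups of 1 library each: Angptl4+/+ at 1 day postwounding (dpw), Angptl4+/+ at 5 dpw, Angptl4-/- at 1 dpw and Angptl4-/- at 5 dpw. The Angptl4-/- mice lack Angptl4, a secreted protein that inhibits lipoprotein lipase, and the labels name no cell type to which the loss is restricted. The sources used here do not say how many mice went into a library. With 1 library per group no difference between genotypes or days could be tested, and every interval given below is a 95% interval that covers counting error only.

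The lysosome is the acidic compartment in which cells break down what they have engulfed. Its cysteine cathepsins (B, L, S and Z), the aspartic protease cathepsin D and legumain (Lgmn), which cuts after asparagine and also processes cathepsins, are made as inactive precursors and become active in the acidic compartment. Prosaposin (Psap) yields the saposins that help to degrade sphingolipids, Npc2 binds cholesterol inside the lysosome and hands it to the membrane protein NPC1, and Lamp1 and the tetraspanin Cd63 lie in the membrane of lysosomes and related granules. Macrophages, which clear dying neutrophils and debris from a wound, are rich in these proteins, cathepsin S is central to antigen presentation, and neutrophils carry Cd63 in their azurophil granules. The transcription factors TFEB, TFE3 and MITF act on many lysosomal genes through sites built on the letters CACGTG.

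In GRCm38, by GENCODE release M21, Ctsb lies at chr14:63122462-63145923 on the + strand, Ctsl at chr13:64359337-64370890 on the - strand and Ctss at chr3:95526786-95556403 on the + strand. Ctsz lies at chr2:174427493-174439039 on the - strand, Ctsd at chr7:142375911-142388038 on the - strand and Lgmn at chr12:102394084-102439813 on the - strand. Psap lies at chr10:60277627-60302597 on the + strand, Npc2 at chr12:84754562-84773152 on the - strand, Cd63 at chr10:128900989-128912822 on the + strand and Lamp1 at chr8:13159161-13175338 on the + strand. Of the annotated genes that overlap them, those in the matrices were far lower, the highest being Nelfcd on the strand opposite to Ctsz with 1520 UMIs against 58734 of Ctsz.

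The sequence just before the start site was read because these genes are set side by side as one family. RefSeq start sites of GRCm38.p6 were available for 9 of the 10 genes. The 250 bases before a start were searched for CACGTG, which reads the same on both strands, and for its longer form TCACGTGA, which contains it. CACGTG stood in 4 of the 11 windows of the members (36.4%), those of Ctsl, Ctsd, Lgmn and Lamp1, and in 6.02% of the 32851 windows of all genes, or by gene in 4 of 9 and in 1854 of 27025, while TCACGTGA stood before Ctsd only among the members and in 0.785% of all windows. The stretches that hold the match nearest to the start are shown because they differ in number and spacing of the sites: Lamp1 has 4 matches within 61 bases of its start. Each is read 5′ to 3′ on the gene's strand, with the matches in capitals and at most 20 bases on either side.
Lamp1, chr8:13159080-13159160, + strand: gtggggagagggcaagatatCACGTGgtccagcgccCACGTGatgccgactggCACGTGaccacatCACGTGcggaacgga
Ctsd, chr7:142387900-142387945, - strand: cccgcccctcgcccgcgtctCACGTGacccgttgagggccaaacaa
Ctsl, chr13:64370731-64370770, - strand: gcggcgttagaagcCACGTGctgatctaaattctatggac
Lgmn, chr12:102439116-102439161, - strand: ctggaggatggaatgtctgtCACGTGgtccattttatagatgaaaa
A match is a description of these letters and not a binding site. Ctsd held a further match 245 bases before its start, and the Lgmn match belongs to 1 of its 2 RefSeq starts. The RefSeq starts used for the Ctsl, Ctsd and Lgmn stretches lie within the bounds that the gene annotation gives these genes, so the bases shown are before that start and inside the annotated gene.

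After filtering, the libraries held 5346 cells of Angptl4+/+ at 1 dpw, 4945 of Angptl4+/+ at 5 dpw, 4798 of Angptl4-/- at 1 dpw and 4738 of Angptl4-/- at 5 dpw, with medians of 3735.5 to 4975.5 UMIs per cell and 26981596 to 32962595 deposited UMIs per library. Clustering without the lysosomal genes gave 13781 neutrophil-like, 4218 macrophage-like, 657 dendritic cell-like and 564 monocyte-like cells. Another 519 cells were NK cell/T cell-like, 55 were B cell-like and 33 stayed unnamed. Ptprc, which encodes CD45, was detected in 89.8 to 93.8% of cells. Angptl4 gave 47 and 78 UMIs in the Angptl4+/+ libraries at 1 and 5 dpw and none in either Angptl4-/- library, which with 3 counts allowed is at least 13.1-fold lower at 1 dpw and 23.7-fold lower at 5 dpw. The libraries shared 5 to 15 barcodes per pair, and no member moved past or back from the 1.5-fold mark between libraries without them.

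The family stood highest in macrophage-like cells. Levels are given as CPM, the UMIs of a gene per 1000000 UMIs of the class in that library, and levels of different genes are not compared with each other. Together the 10 genes took 1.73%, 1.76%, 1.78% and 1.46% of macrophage-like UMIs in the libraries of Angptl4+/+ at 1 and 5 dpw and Angptl4-/- at 1 and 5 dpw, in that order, against 0.26%, 0.365%, 0.275% and 0.326% of neutrophil-like UMIs. Monocyte-like cells gave 0.776 to 0.847% and dendritic cell-like cells 0.477 to 0.700%. Of the 10 genes, 8 were at least 2-fold higher in macrophage-like than in neutrophil-like cells in all 4 libraries. So were 38.8% of the 7071 genes with at least 100 UMIs summed over both classes in every library. The exceptions were Ctsd and Cd63.

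**Figure D1:**
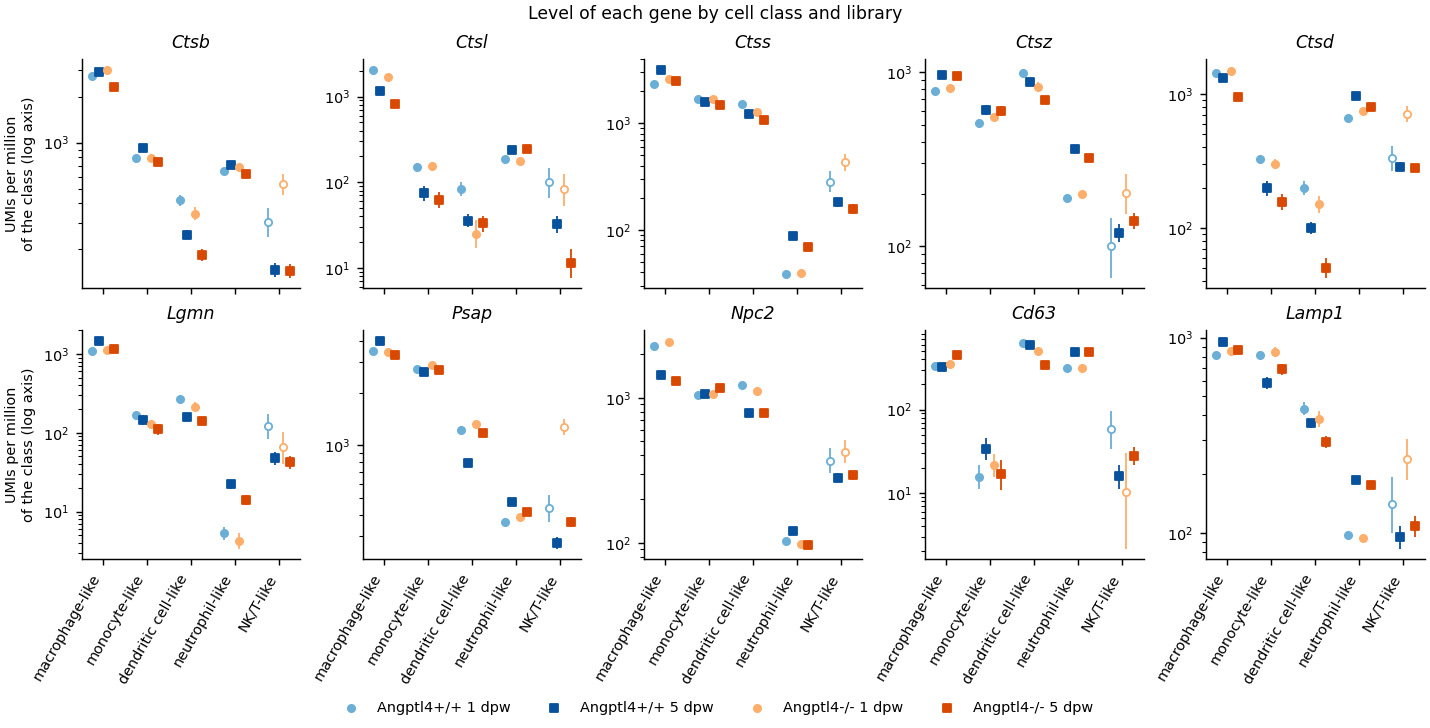
CPM of the class on a log axis for each gene, in 5 cell classes (x axis) and 4 libraries (colours), with 95% intervals for counting error as bars and open symbols for classes under 50 cells in that library. Macrophage-like cells stand highest for Ctsb, Ctsl, Ctss, Ctsd, Lgmn, Psap and Npc2 in every library, while Cd63 stands near the bottom in monocyte-like cells.

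Among the cysteine cathepsins, Ctsb, an abundant endo- and carboxypeptidase, was at 2740.1, 2889, 2966 and 2316 CPM in macrophage-like cells of the 4 libraries in the same order. In neutrophil-like cells it was at 648, 718, 695 and 621 CPM. Among the classes with at least 50 cells, its order was macrophage-like, monocyte-like, neutrophil-like and dendritic cell-like in all 4 libraries, and no neighbours had intervals that overlapped. Ctsl, an endopeptidase, was at 2039, 1146, 1677 and 827 CPM in macrophage-like cells and at 184, 235, 177 and 246 in neutrophil-like cells, which stood second. Its level in monocyte-like cells, 150.2, 74.2, 155 and 62.2 CPM, was below that of the neutrophil-like cells in every library, though at Angptl4-/- 1 dpw those intervals overlapped.

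Ctss, the cathepsin that trims the invariant chain in antigen-presenting cells, separated the classes widely. It was at 2354, 3166, 2598 and 2482 CPM in macrophage-like cells, at 1674, 1590.5, 1704 and 1494 in monocyte-like cells and at 1531, 1211, 1277 and 1070.0 in dendritic cell-like cells. In neutrophil-like cells it was at 38.2, 88.6, 39.3 and 69.5 CPM. The 3 mononuclear classes thus stood in the same order in each library and neutrophil-like cells stood last. Ctsz, a carboxypeptidase, was high in dendritic cell-like cells too. They held 987, 882, 825 and 689 CPM, against 776, 965, 808 and 953 in macrophage-like cells, so that dendritic cell-like cells were above macrophage-like cells at 1 dpw, with overlapping intervals in Angptl4-/-, and below them at 5 dpw.

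Ctsd, the aspartic protease, was the cathepsin for which neutrophil-like cells came closest to macrophage-like cells. It was at 1427, 1324, 1491 and 952 CPM in macrophage-like cells and at 660.3, 960.3, 748 and 804 in neutrophil-like cells. Monocyte-like cells, at 329, 197, 301 and 156 CPM, and dendritic cell-like cells, at 199, 100.3, 150.1 and 50.4, were below both in all 4 libraries. Lgmn was the most uneven between macrophage-like and neutrophil-like cells, at 1102, 1457, 1132 and 1144 CPM in the former and 5.34, 22.1, 4.26 and 14.1 in the latter. Dendritic cell-like cells held 265, 158, 215 and 139 CPM of Lgmn and monocyte-like cells 170.0, 144, 128 and 110.5, and the intervals of these classes overlapped at 5 dpw in both genotypes.

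Of the lipid-handling genes, Psap was at 3469, 3968, 3457 and 3306 CPM in macrophage-like cells and close behind in monocyte-like cells at 2745, 2633, 2901 and 2717. Neutrophil-like cells held 361, 474, 387 and 417 CPM of Psap. Npc2 was at 2277, 1436, 2442 and 1297 CPM in macrophage-like cells and at 103, 121, 98.0 and 96.1 in neutrophil-like cells. Macrophage-like over neutrophil-like levels of Npc2 were 22.2-fold, 11.8-fold, 24.9-fold and 13.5-fold, so the gap in CPM was wider at 1 dpw in both genotypes. The median gene of neutrophil-like cells was itself higher at 5 dpw, by 0.65 in Angptl4+/+ and 0.68 in Angptl4-/- on the log2 scale. In macrophage-like cells the median gene was higher by 0.15 and 0.07.

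The membrane proteins differed in their order of classes. Lamp1 was at 814, 949, 859.6 and 862 CPM in macrophage-like cells and at 816, 585, 848 and 689 in monocyte-like cells, with overlapping intervals at 1 dpw. Cd63 was low in monocyte-like cells, at 15.8, 33.8, 21.8 and 16.8 CPM. Dendritic cell-like cells held 629.6, 601, 502 and 344 CPM of Cd63, neutrophil-like cells 319, 484, 311 and 493 and macrophage-like cells 337, 325, 353 and 446. Neutrophil-like cells were therefore above macrophage-like cells at 5 dpw in both genotypes, at 149% of their level in Angptl4+/+ and 111% in Angptl4-/-. Between days Cd63 in neutrophil-like cells moved with the median gene there, at -0.05 and -0.02 relative to it on the log2 scale.

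The NK cell/T cell-like class held 35 and 36 cells at 1 dpw, too few for the order of levels. At 5 dpw, with 228 and 220 cells, Ctsd was at 287 and 280.4 CPM, below macrophage-like and neutrophil-like but above monocyte-like and dendritic cell-like cells in both genotypes. The 55 B cell-like cells gave 0 to 31 UMIs per member and library and are not ranked.

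Free RNA from broken macrophages can add UMIs to droplets that hold other cells. For 8 macrophage genes (C1qa, C1qb, C1qc, Pf4, Mrc1, Ms4a7, Folr2 and Cbr2) the neutrophil-like level was 0.104 to 0.886% of the macrophage-like level over the 4 libraries. In every library 9 of the 10 members were above the highest of these reference genes, and Ctss, the lowest of the 9, was at 1.62%, 2.80%, 1.51% and 2.80% of its macrophage-like level. Lgmn was at 0.484%, 1.52%, 0.376% and 1.23%, above the reference genes in 3 libraries and inside the reference range at Angptl4-/- 1 dpw, where the reference genes had a median of 0.158% and the highest, Folr2 with 5 UMIs in neutrophil-like cells, was at 0.591%. In NK cell/T cell-like cells at 5 dpw 6 or 7 of the 10 members, Ctss and Lgmn among them, were at or below the highest reference gene, Mrc1. Their part in those levels was not tested. In dendritic cell-like cells Ctsb, Ctsd, Ctsl and Lgmn were at or below Mrc1 in each library, and Mrc1 may also be made by dendritic cells. In monocyte-like cells Cd63 was at or below the highest reference gene in each library. So were Ctsl in Angptl4+/+ on both days and Lgmn in Angptl4+/+ at 5 dpw.

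**Figure D2:**
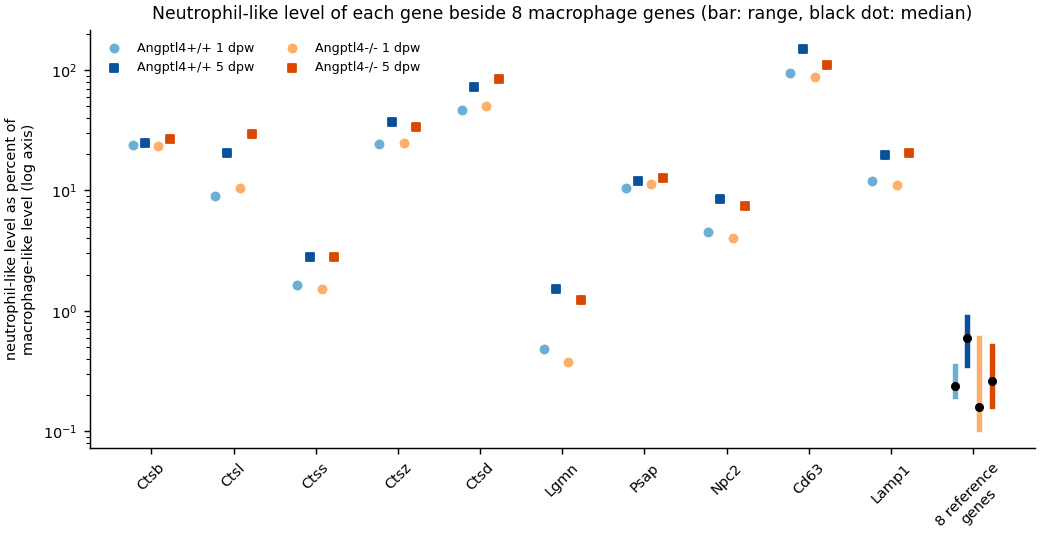
Neutrophil-like level of each gene as percent of its macrophage-like level in the same library, on a log axis, with the range and median of 8 macrophage reference genes at the right. Cd63 and Ctsd lie highest, Lgmn lies lowest, and the reference genes span 0.104 to 0.886%.

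Whether the genotypes differ was the question of the study, and it was asked here of macrophage-like cells first. At 1 dpw the 10 genes differed little: the log2 ratios of Angptl4-/- over Angptl4+/+ ran from -0.28 for Ctsl to 0.14 for Ctss, with a median of 0.07 beside 0.02 over 7847 genes. None of the 10 was 1.5-fold higher or lower, while 1.92% of all genes were higher and 2.03% lower by that measure, which asks for a ratio of at least 1.5-fold and an interval that excludes 0. At 5 dpw 9 of the 10 ratios were negative, with a median of -0.29 beside -0.02 over 8862 genes. Again none passed 1.5-fold, beside 1.87% of all genes higher and 3.25% lower.

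The proteases made up most of the lower levels at 5 dpw, which are shares of class UMIs and not amounts per cell. Ctsd was at 952 CPM in Angptl4-/- against 1324 in Angptl4+/+, a log2 ratio of -0.48 (-0.52 to -0.44), and Ctsl at 827 against 1146, a log2 ratio of -0.47 (-0.51 to -0.43). Ctss, Lgmn and Ctsb were lower by 1.28-fold, 1.27-fold and 1.25-fold, while Ctsz, at 953 against 965, had an interval that included 0. The partners were closer together, with log2 ratios of -0.26 for Psap, -0.15 for Npc2 and -0.14 for Lamp1. Cd63 went the other way, at 446 against 325 CPM, a log2 ratio of 0.46 (0.39 to 0.52). Over the 12 alternative ways of counting and clustering the 9 genes other than Ctsz kept their sign, with log2 ratios of -0.59 to -0.43 for Ctsd and 0.43 to 0.55 for Cd63. With cells thinned to 1000 UMIs, the -0.59 of Ctsd was past 1.5-fold. Macrophage-like cells at 5 dpw were deeper in Angptl4-/-, where the median cell held 11513 UMIs against 8315 in Angptl4+/+. Counted per cell, the proteases Ctsd, Ctsl, Ctsb and Ctss were therefore not lower in Angptl4-/-. Ctsd gave 11.3 against 11.1 UMIs per cell and Ctsl 9.81 against 9.62. Ctsb gave 27.5 against 24.3, Ctss 29.4 against 26.6 and the 10 genes together 173 against 148.

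The macrophage-like class is mixed, so the comparison was repeated inside 8 sub-clusters into which macrophage-like and monocyte-like cells fell together, found without the lysosomal genes and called by their leading gene. They were led by Mt2 (969 cells), the interferon-induced chemokine gene Cxcl10 (754), Ltc4s (641), Dmkn (635), Ace (563, of which 554 were monocyte-like), Retnlg (533), Ccl8 together with the C1q genes (456) and Retnla (231). The sub-cluster led by Retnlg had a median of 1473 UMIs and was led by neutrophil genes, and it held 32 cells at Angptl4-/- 5 dpw, so its ratios are the least certain. At 5 dpw Ctsl, Ctss and Lgmn were lower in Angptl4-/- in 8 of 8 sub-clusters and Ctsb and Ctsd in 7 of 8, with the interval below 0 in 6 for Ctsl and in 7 for each of the others. Of the 9 members with at least 100 UMIs in every sub-cluster, 5 were lower in at least 7 of 8, as were 12.6% of the 761 genes with that many. The 8 ratios of a gene come from the same pair of libraries and are not replicates.

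The size of the difference varied with the sub-cluster. In the cells led by Ccl8, Ctsb was at 5692, 5299, 5155 and 3441 CPM in the 4 libraries, so that Angptl4-/- at 5 dpw stood alone as the low one. Ctsd was lowest in the same library there, at 2458, 1939, 2333 and 1071. In the cells led by Ltc4s, by contrast, Ctsb was at 3664, 3654, 4639 and 4065 CPM and higher in Angptl4-/- on both days. Ctss in the cells led by Mt2 was at 1314, 3183, 1721 and 1904 CPM, with Angptl4+/+ at 5 dpw as the high one.

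Cd63 was higher in Angptl4-/- at 5 dpw in 5 of 8 sub-clusters, in 4 of them with the interval above 0, and most so in the cells led by Ltc4s. In the cells led by Retnlg, 1 of the 5, it was at 431 against 407 CPM, but at 235 against 380.4 without cells holding at least 3 UMIs of mast cell markers. In those led by Ltc4s it was at 256, 144, 401 and 499.6 CPM, a log2 ratio at 5 dpw of 1.79 (1.59 to 1.99). At 5 dpw it was detected in 76.5% of the 98 Angptl4-/- cells and 38.1% of the 331 Angptl4+/+ cells of that sub-cluster, at median depths of 10590 and 6883 UMIs, and the 5 highest cells held 28.2% and 11.6% of its UMIs. Mast cells, which are rich in CD63, left UMIs in this class: the 5 mast cell markers (Cpa3, Mcpt4, Cma1, Tpsb2 and Kit) summed to 245 CPM in macrophage-like cells of Angptl4-/- at 5 dpw and to 0.172 to 2.67 in the other 3 libraries, with all 5 detected in the former and 4, 1 and 4 of them at 0 in Angptl4+/+ at 1 and 5 dpw and Angptl4-/- at 1 dpw. At least 3 such UMIs were held by 3 of those 655 cells, and without all cells holding that many in any library the Cd63 ratio of the class was 0.45 in place of 0.46. In the cells led by Ltc4s the markers were at 0 in Angptl4-/- at 5 dpw.

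**Figure D3:**
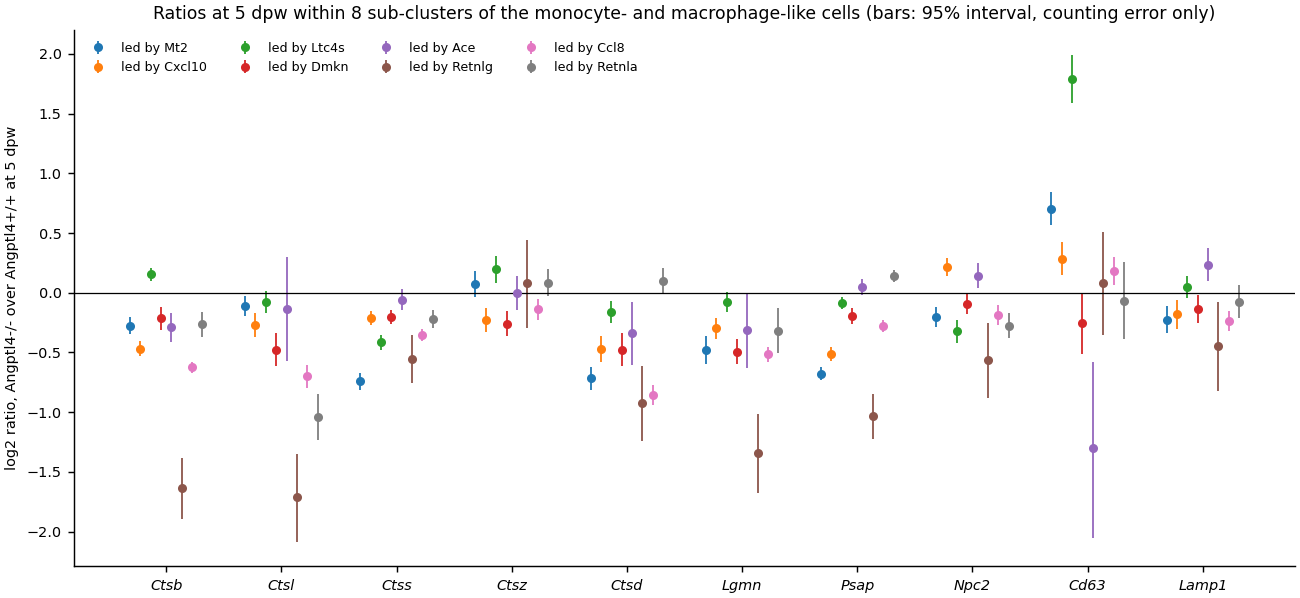
Log2 ratio of Angptl4-/- over Angptl4+/+ at 5 dpw for each gene (x axis) in the 8 sub-clusters (colours), with 95% intervals for counting error as bars. Ctsl, Ctss and Lgmn lie below 0 in all 8 sub-clusters, and Cd63 in the cells led by Ltc4s lies highest at 1.79.

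Between days, 2 members separated from the rest in macrophage-like cells. Ctsl and Npc2 were lower at 5 dpw than at 1 dpw in both genotypes, Ctsl by 1.78-fold in Angptl4+/+ and 2.03-fold in Angptl4-/-, and Npc2 by 1.59-fold and 1.88-fold. In Angptl4-/- Ctsd was also lower, by 1.57-fold (log2 ratio -0.65, -0.69 to -0.60), whereas in Angptl4+/+ its log2 ratio was -0.11. The members past 1.5-fold were thus 2 of 10 in Angptl4+/+ and 3 of 10 in Angptl4-/-, all lower, beside 9.62% and 10.2% of all genes lower. No member was 1.5-fold higher, beside 19.6% of all genes in Angptl4+/+ and 14.5% in Angptl4-/-. The median log2 ratio of the members was 0.14 and -0.07, and that of all genes 0.15 and 0.07. These are shares of class UMIs. The median macrophage-like cell held 6850 and 8315 UMIs at 1 and 5 dpw in Angptl4+/+ and 5832.5 and 11513 in Angptl4-/-. Counted per cell, Ctsl and Npc2 were still lower at 5 dpw in both genotypes, but Ctsd in Angptl4-/- was not. The 10 genes together gave 135 and 148 UMIs per cell in Angptl4+/+ and 122 and 173 in Angptl4-/-.

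The lower Ctsl at 5 dpw held inside the sub-clusters, 8 of 8 in each genotype, with 6 and 7 of them past 1.5-fold. In the cells led by Retnla, with 35 and 31 cells at 1 dpw, it was at 1809, 534, 1912 and 259.6 CPM, so that both 5 dpw libraries stood well below both 1 dpw libraries. Npc2 was lower in 7 of 8 sub-clusters in each genotype, and in the cells led by Cxcl10 it was at 3672, 1861, 3982 and 2164 CPM. The share of all genes lower in as many sub-clusters between days was not computed. The exception in both genotypes was the cells led by Ace, where Npc2 was at 1046, 1058, 1066 and 1169. Neutrophil markers in macrophage-like cells, 10 genes all detected, summed to 13276 and 11468 CPM at 1 dpw and to 2208 and 2410.4 at 5 dpw, and without the sub-cluster led by Retnlg the same members passed 1.5-fold as with it.

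Ctss and Lgmn gave the opposite picture in Angptl4+/+. Ctss was at 2354 CPM at 1 dpw and 3166 at 5 dpw, 0.43 higher on the log2 scale (0.40 to 0.45). Lgmn was at 1102 and 1457, or 0.40 higher (0.37 to 0.44). In Angptl4-/- their log2 ratios were -0.07 and 0.01. These are shares of class UMIs, and the median macrophage-like cell of Angptl4-/- held 5832.5 UMIs at 1 dpw and 11513 at 5 dpw. Counted per cell, both genes were higher at 5 dpw in both genotypes. Inside the sub-clusters of Angptl4+/+ the direction was mixed: Ctss was higher at 5 dpw in 5 of 8 and lower in 3, and Lgmn higher in 4 and lower in 4, with the interval excluding 0 in all of these but 1 for Lgmn. This is the same set of 4 libraries as in the comparison of genotypes, so the 2 views are not independent, and whether the genotypes differ in their change with time could not be tested.

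**Figure D4:**
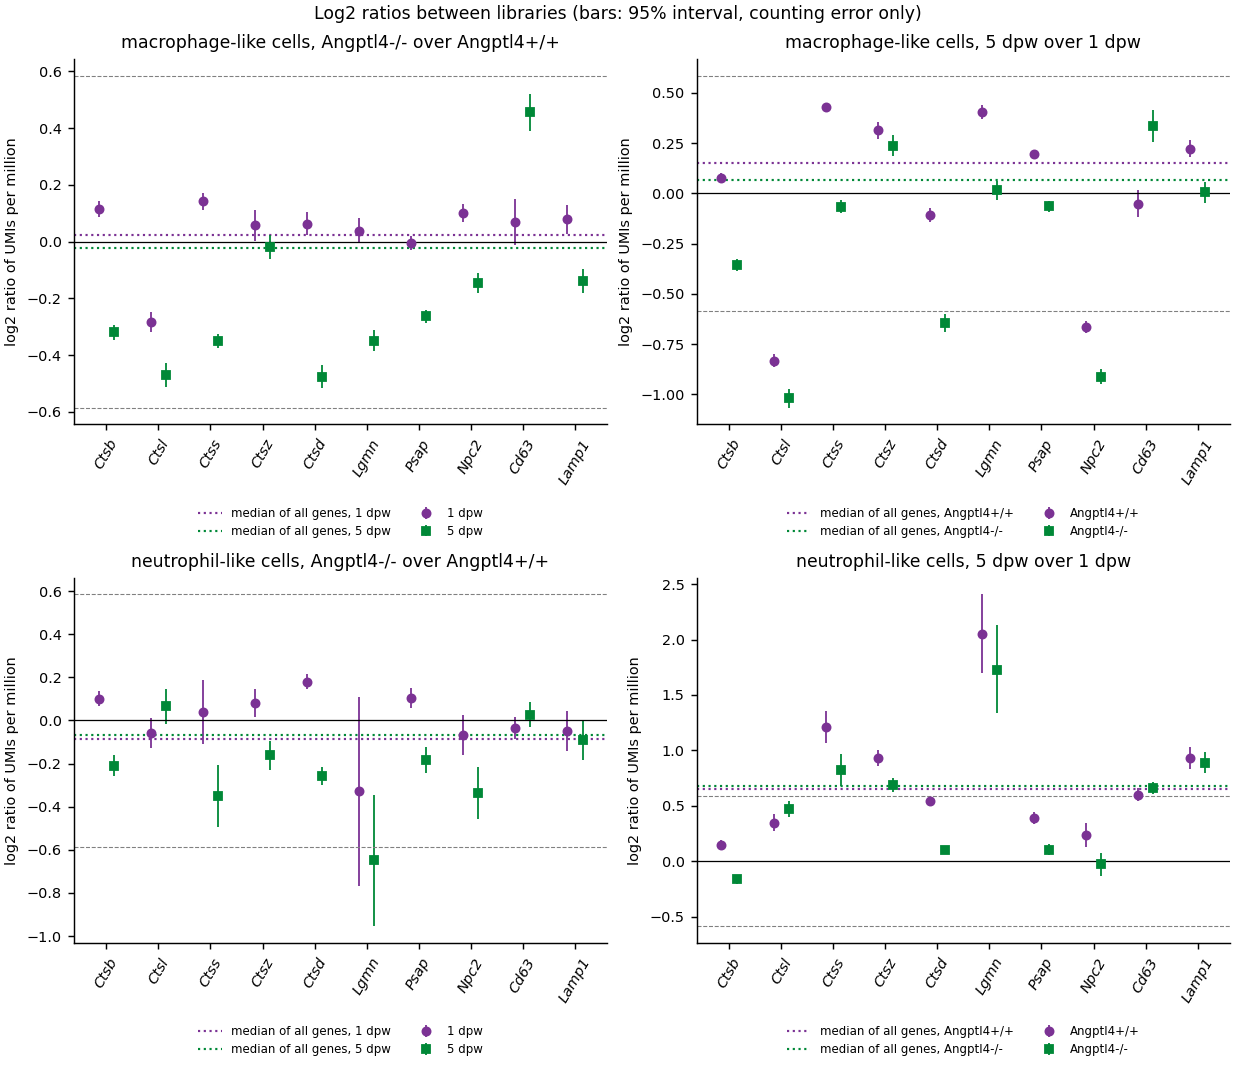
Log2 ratios between libraries for the 10 genes, in macrophage-like (top) and neutrophil-like cells (bottom), between genotypes (left) and between days (right). Bars are 95% intervals for counting error, dotted lines the median of all genes and dashed lines 1.5-fold; at the bottom right the median of all genes itself lies at 0.65 and 0.68.

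In neutrophil-like cells the genotypes differed less than the days. At 1 dpw the log2 ratios of Angptl4-/- over Angptl4+/+ had a median of 0.00 beside -0.09 over 6468 genes, and none of the 10 members passed 1.5-fold, beside 0.928% of genes higher and 3.68% lower. At 5 dpw the median was -0.20 beside -0.07 over 6700 genes. Lgmn, 1 of the 10, was lower, at 14.1 against 22.1 CPM, a log2 ratio of -0.65 (-0.95 to -0.34), beside 3.64% of genes lower and 1.81% higher. The 8 macrophage reference genes had a median neutrophil-like level of 0.262% of the macrophage-like level in Angptl4-/- and 0.599% in Angptl4+/+ at 5 dpw, and the summed macrophage markers, 11 genes all detected, were at 176 and 246 CPM. Their part in the Lgmn ratio was not tested. Lgmn was not past 1.5-fold with size factors, at a log2 ratio of -0.54, or with likely doublets left out.

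The days could only be read against the rest of the transcriptome. From 1 to 5 dpw the median gene was higher by 0.65 on the log2 scale in Angptl4+/+ and 0.68 in Angptl4-/-, and 53.9% and 55.6% of all genes were 1.5-fold higher against 4.48% and 4.17% lower. The 10 neutrophil markers, S100a8 and S100a9 among them, took 201049 and 217871 CPM at 1 dpw and 106724 and 107656 at 5 dpw. Ctss, Ctsz, Lgmn, Cd63 and Lamp1, 5 of 10 members in each genotype, were 1.5-fold higher at 5 dpw, a share near that of all genes, and none was lower. The median neutrophil-like cell held 4683 and 3218 UMIs at 1 and 5 dpw in Angptl4+/+ and 4636.5 and 3393 in Angptl4-/-. Counted per cell, the 10 genes together gave 13.2 and 11.7 UMIs in Angptl4+/+ and 13.6 and 11.4 in Angptl4-/-. Relative to the median of all genes, Lgmn remained higher by 1.40 in Angptl4+/+ and 1.05 in Angptl4-/- on the log2 scale. Cd63 was at -0.05 and -0.02 on that relative scale. Ctsb, at -0.50 and -0.84, Npc2, at -0.41 and -0.71, and Psap, at -0.26 and -0.57, were below the median gene in both genotypes, as was Ctsd at -0.11 and -0.58. With size factors in place of total UMIs, 1 member was higher and 1 lower in Angptl4+/+ and 1 was higher and 4 lower in Angptl4-/-.

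Lgmn in these cells was at 5.34 and 4.26 CPM at 1 dpw and 22.1 and 14.1 at 5 dpw. After thinning to 1000 UMIs per cell, which left out 35 and 109 shallower cells, Lgmn was detected in 0.441% of Angptl4+/+ neutrophil-like cells at 1 dpw and in 2.44% on the later day (2.42% and 6.42% unthinned), and C1qa, which neutrophils should lack, in 0.0779% and 1.16% (0.257% and 3.15% unthinned), at median depths of 4683 and 3218 UMIs. In Angptl4+/+ neutrophil-like cells C1qa was at 0.509 and 10.2 CPM at 1 and 5 dpw and Pf4 at 7.27 and 7.64. In macrophage-like cells of the same libraries C1qa was at 203 and 1427 CPM and Pf4 at 2338 and 863. As percent of the macrophage-like level, the 8 reference genes had medians of 0.239% and 0.599% in these neutrophil-like cells. Lgmn was at 0.484% and 1.52%. The part of macrophage RNA in the higher Lgmn level was not tested.

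Neutrophil-like cells fell into 6 clusters, found without the lysosomal genes and led by Csf1, Lrg1, F3, Ifit1, Csf3 and BC100530. The cluster led by Csf1, the gene of the macrophage growth factor, held 4238 cells and had the highest level of Ctsb, Ctsd, Psap, Cd63 and Lamp1 in all 4 libraries. The share of all genes highest in that cluster was not computed, so this does not set the family apart. Averaged over libraries, Ctsb ranged from 259 CPM in the cells led by Lrg1 to 1333 in those led by Csf1, or 5.16-fold, and Lamp1 from 56.4 in those led by F3 to 288, or 5.11-fold. Cd63 was at 833, 819, 840 and 830.3 CPM in the cells led by Csf1 and at 104, 262, 93.4 and 265 in those led by Lrg1. In the cells led by Csf1 the 4 libraries lay close together in this share of UMIs, while Cd63 UMIs per cell in Angptl4+/+ were 3.67 at 1 dpw and 2.65 at 5 dpw.

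Ctss was highest in the cells led by the interferon-induced gene Ifit1 in all 4 libraries, at 82.4, 182, 98.3 and 187 CPM, and averaged 5.98-fold above those led by Csf3. The cells led by Csf3 held only 14, 23, 14 and 35 Ctss UMIs and had the lowest level in 3 libraries. Ctsl was the most even of the cathepsins, with averages from 161 CPM in the cells led by Ifit1 to 277 in those led by Csf3, or 1.72-fold. The latter exceeded the cells led by Csf1 at 5 dpw, at 312 against 247 and 354 against 259 CPM, but not at 1 dpw, at 214 against 251 and 227 against 238.

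**Figure D5:**
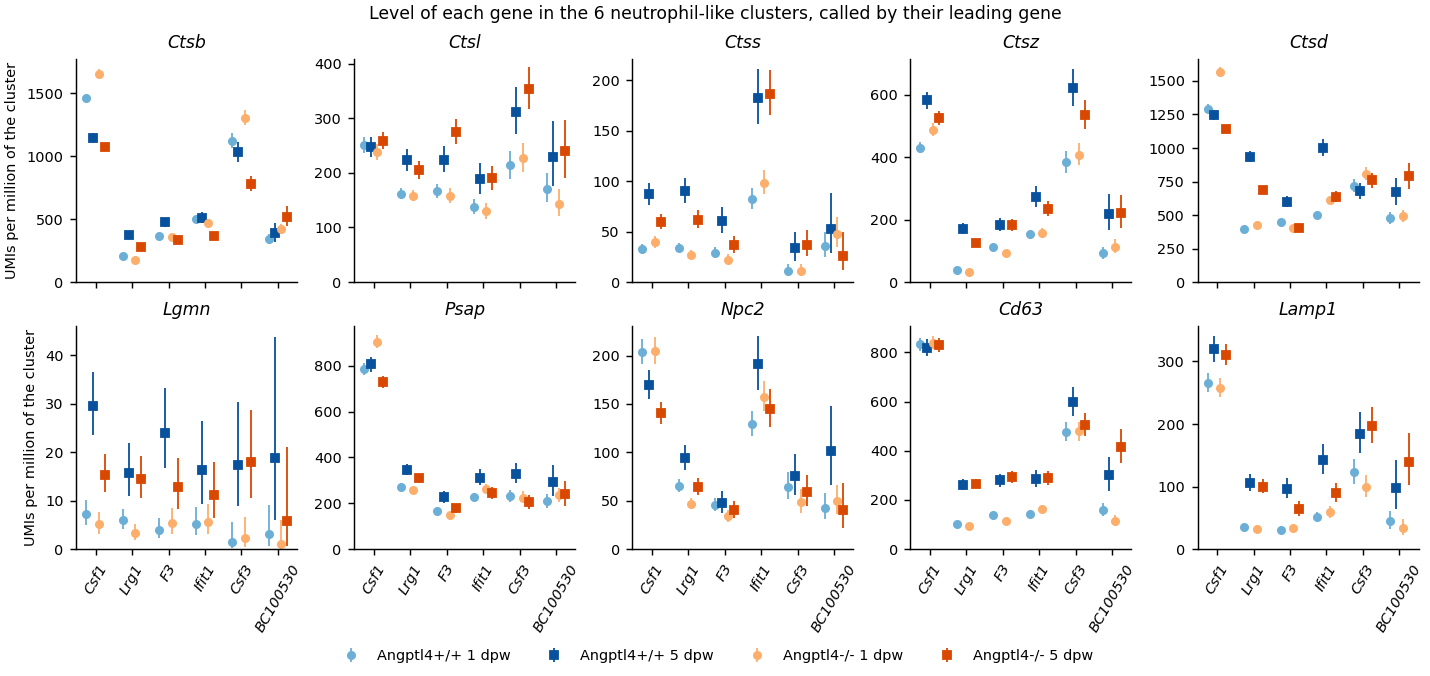
CPM of the cluster for each gene in the 6 neutrophil-like clusters (x axis, leading gene) and 4 libraries (colours), with 95% intervals for counting error. Ctsb, Ctsd, Psap, Cd63 and Lamp1 are highest in the cells led by Csf1 in all 4 libraries, and Ctss in those led by Ifit1. The share of all genes highest in a given cluster was not computed.

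In dendritic cell-like cells, 84 to 281 per library, Ctsb and Ctsd were lower at 5 dpw. Both genes were at or below Mrc1, the highest reference gene for free RNA, but above the reference median in each library. As percent of the macrophage-like level, Ctsb was at 7.99 to 15.3%, Ctsd at 5.29 to 14.0% and the reference median at 1.12 to 2.50%. Ctsb was at 419 and 251 CPM at 1 and 5 dpw in Angptl4+/+ and at 344 and 185 in Angptl4-/-, and Ctsd at 199 and 100.3 and at 150.1 and 50.4. Between genotypes at 5 dpw, Ctsd was lower in Angptl4-/-, at 50.4 against 100.3 CPM. Cd63 was lower too, 344 against 601 CPM (log2 ratio -0.80, -0.92 to -0.69), the direction opposite to that in macrophage-like cells. Cd63 was detected in 46.3% against 60.9% of these cells. Psap was at 1179.5 against 797 CPM in them, also opposite in direction to macrophage-like cells. The dendritic cell-like class was 1 cluster and was not divided further, and the part of its make-up in these differences was not tested. In monocyte-like cells, 128 to 155 per library, Ctsl was lower at 5 dpw in both genotypes. It was at 150.2 against 74.2 CPM in Angptl4+/+ and at 155 against 62.2 in Angptl4-/-. As percent of the macrophage-like level, it was at 7.37% and 6.48% in Angptl4+/+ and at 9.23% and 7.53% in Angptl4-/-. The highest reference gene for free RNA was at 10.8% and 13.8% and at 7.49% and 7.20%, in that order. The part of free RNA in the lower Ctsl was not tested. For dendritic cell-like and monocyte-like cells the median and share of all genes and the alternatives were not computed.

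The other lysosomal genes, 93 in 7 lists, set the family in its surroundings. In macrophage-like cells of the later day 3 of 87 measured were 1.5-fold higher in Angptl4-/- and 2 lower, or 3.45% and 2.30%, beside 1.87% and 3.25% of all genes, with a median log2 ratio of -0.07. The lower ones were the hydrolases Sgsh, a sulfatase for heparan sulfate, at 10.6 against 20.2 CPM and Arsb, a sulfatase for dermatan sulfate, at 5.66 against 10.2. The higher ones were Ctsk, a collagen-cleaving cathepsin, at 32.9 against 15.6, the protease inhibitor Serpinb1a at 13.0 against 7.17 and the proton pump subunit Atp6v0c at 6.69 against 4.35. Median log2 ratios by list were -0.09 for 5 other cathepsins, -0.15 for 33 hydrolases, -0.10 for 17 membrane and transport genes, -0.05 for 9 sorting genes, 0.02 for 16 proton pump subunits, -0.08 for 4 transcription factors and 0.31 for 3 inhibitors. At 1 dpw 1 of 80 was higher, the fucosidase Fuca1 at 229 against 148 CPM, and none lower.

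In macrophage-like cells of Angptl4+/+ 10 of 33 hydrolases were higher at 5 dpw and 1 was lower, with a median log2 ratio of 0.40, and the 30.3% higher stand beside 19.6% of all genes. In Angptl4-/- 4 of 32 were higher and 1 lower, with a median of 0.13, and the 12.5% higher stand beside 14.5% of all genes. Lipa, the acid lipase that frees cholesterol from its esters, was at 97.3 CPM at 1 dpw and 274 at 5 dpw in Angptl4+/+ and at 82.2 and 263 in Angptl4-/-, 1.49 and 1.68 higher on the log2 scale. The phospholipase Pla2g15 was at 17.7 and 63.2 in Angptl4+/+ and at 24.3 and 45.5 in Angptl4-/-.

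The membrane glycoprotein Gpnmb went the other way, from 105 to 35.3 CPM in Angptl4+/+ and from 110 to 29.6 in Angptl4-/-. Cstb, the cystatin that inhibits cathepsins in the cytosol, was lower at 5 dpw as well, at 1462 and 767 in Angptl4+/+ and 1580.0 and 952 in Angptl4-/-. Cst3, the secreted cystatin, was at 1191 and 1591 in Angptl4+/+ and 1159.9 and 1543 in Angptl4-/-. Of the transcription factors, Tfeb was at 21.5 and 33.1 CPM in Angptl4+/+ and at 19.1 and 30.9 in Angptl4-/-, higher by 0.62 and 0.69 on the log2 scale, and Tfec, a relative of it, at 34.7 and 22.0 and at 32.9 and 23.7. Of the proton pump subunits 2 of 16 in Angptl4+/+ and 2 of 14 in Angptl4-/-, Atp6v1a and Atp6v1d in both, were lower and none was higher; the lower ones make 12.5% and 14.3%, beside 9.62% and 10.2% of all genes.

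In neutrophil-like cells between days 27 of 67 other lysosomal genes were higher in Angptl4+/+ and 26 of 68 in Angptl4-/-, 40.3% and 38.2%, below the 53.9% and 55.6% of all genes. Gm2a, the activator of ganglioside breakdown, was at 56.6 and 249 CPM in Angptl4+/+ and at 45.3 and 208 in Angptl4-/-. Cst3 was at 235 and 694 and at 230.4 and 582. Serpinb1a, an inhibitor of neutrophil serine proteases, was lower at 5 dpw, at 11.6 and 4.05 in Angptl4+/+ and 18.1 and 8.32 in Angptl4-/-, and Ctsc, which activates those proteases, at 100.3 and 51.1 and at 92.1 and 57.9. Of the 4 other cathepsins measured, Ctsc was the 1 lower and 2 were higher in each genotype. Ctsa was at 20.3 and 65.9 CPM in Angptl4+/+ and at 18.2 and 60.4 in Angptl4-/-. Ctse was at 7.83 and 13.1 and at 4.47 and 11.5.

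Over 18 profiles of class by library with at least 50 cells, the genes outside all lists most alike to the mean of the members were Zfp703 (Pearson r = 0.97), Adam9 (0.97), Slc39a1 (0.97), Arl8a (0.96) and Rab5c (0.96), a description across profiles that share libraries. Among the members, each of which is itself part of that mean, Lgmn followed it most closely (r = 0.92), and Cd63 (0.30) and Ctsd (0.40) least. Over the 32 profiles of sub-cluster by library all 45 pairs of members had a positive r, from 0.25 for Npc2 with Lamp1 to 0.89 for Ctsl with Ctsd. The profiles include the mostly monocyte-like sub-cluster led by Ace, which was lowest for Ctsb, Ctsl, Ctsd, Lgmn and Cd63 in each library. The share of positive r over pairs of other genes was not computed, so these values do not set the family apart.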

How the data were processed

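Live CD45+ cells had been sorted from wounds and run on the 10x Genomics 3' platform, 1 library per group. The deposited values are counts: UMIs per gene and barcode made by the authors, with Cell Ranger 3.1.0, Seurat 3.0 and the mm10 build named in the submitters' processing notes. Barcodes with at least 200 genes and at most 10% mitochondrial UMIs were kept. Cells were integrated and clustered with Seurat 5.3.0 in R 4.3.3 (2000 variable genes, 30 dimensions, Louvain resolution 0.5), with 105 genes (the lysosomal lists, Cd74 and Angptl4) left out of the variable genes, and classes were named from marker lists. Integration did not enter the levels. UMIs were summed per class and library and divided by the class total to give counts per 1000000 (CPM), with exact Poisson 95% intervals, and ratios with exact conditional binomial 95% intervals (scipy 1.17.1), which cover counting error only. A gene was called past the fold at 1.5-fold or more with an interval excluding 0, among genes with at least 100 UMIs over both libraries. The scripts were tested on simulated data.

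With 1 library per group, no comparison of genotypes or days has a replicate check and no p-value is given. The 4 comparisons reuse the same 4 libraries. The members and lists were chosen with earlier results of these data known. The text names the 10 members, of the other lists up to 3 genes per list and comparison with the largest log2 ratio whose interval excludes 0, Angptl4, the 5 genes most alike to the members over profiles of log2 (CPM + 10), and the reference genes for free RNA. A doublet caller (scrublet in scanpy 1.11.5) marked under 0.5% of cells, so its calls were not used. No column of another sample was present.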

Additional observations from a re-analysis of the deposited data

Results flagged for a closer look

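Some members had ratios of opposite sign in the groups compared, with both counting intervals excluding 0. With 1 library per group none of these differences was tested, and the difference between the genotypes in their change with time is the same number as the difference between the days in their genotype ratio. In macrophage-like cells Ctsb had log2 ratios of 0.08 (Angptl4+/+) and -0.36 (Angptl4-/-) between days and of 0.11 (1 dpw) and -0.32 (5 dpw) between genotypes, a difference of -0.43. Ctss had 0.43 and -0.07 between days and 0.14 and -0.35 between genotypes, a difference of -0.49. Psap had 0.19 and -0.06 between days, a difference of -0.26. Between genotypes at 1 and 5 dpw Ctsd had 0.06 and -0.48, a difference of -0.54, Npc2 had 0.10 and -0.15, a difference of -0.25, and Lamp1 had 0.08 and -0.14, a difference of -0.22. The smallest of these did not keep their sign under every alternative: Ctsb between days in Angptl4+/+ was -0.094 with median-of-ratios size factors and -0.025 with cells thinned to 1000 UMIs, and Ctsd at 1 dpw was -0.015 with thinned cells, so that neither pair then had opposite signs. All of these ratios are shares of class UMIs. Counted per cell, Ctsb, Ctss and Psap were higher at 5 dpw in both genotypes, so their signs between days were not opposite. Between genotypes, Ctsb, Ctss, Ctsd, Npc2 and Lamp1 per cell were lower in Angptl4-/- at 1 dpw and higher at 5 dpw, the reverse of the shares.

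In neutrophil-like cells Ctsb had 0.15 and -0.16 between days and 0.10 and -0.21 between genotypes, a difference of -0.31. With median-of-ratios size factors the ratio between days in Angptl4+/+ was -0.67, with totals that leave out the 50 most counted genes it was -0.11, and both genotypes then had a negative ratio. Counted per cell, Ctsb was also lower at 5 dpw in both genotypes. Between genotypes at 1 and 5 dpw Ctsz had 0.08 and -0.16, a difference of -0.24, Ctsd had 0.18 and -0.26, a difference of -0.44, and Psap had 0.10 and -0.18, a difference of -0.29. With total UMIs none of the ratios named here reached 1.5-fold, while the -0.67 of Ctsb with size factors did.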

How the results depend on the processing

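No paired analysis was possible because each group has 1 library, and for the same reason no library could be left out. Of the 16 ratios past 1.5-fold, all kept their sign under 11 of 12 alternatives, and 12 did with median-of-ratios size factors, which moved all neutrophil-like ratios between days by -0.81 (Angptl4+/+) and -0.85 (Angptl4-/-) on the log2 scale, macrophage-like ratios between days by -0.17 and -0.11, and neutrophil-like ratios between genotypes by 0.15 and 0.11. With these size factors the log2 ratio between days in neutrophil-like cells was -0.21 for Cd63 in Angptl4+/+ and -0.028 for Ctss, -0.16 for Ctsz and -0.19 for Cd63 in Angptl4-/-. Members 1.5-fold higher between days were then 1 in each genotype in place of 5, and members lower 1 in Angptl4+/+ and 4 in Angptl4-/- in place of 0. In Angptl4-/- the number higher was 3 as a mean over cells and 2 both with cells thinned to 1000 UMIs and with totals that leave out the 50 most counted genes. Between genotypes at 5 dpw, the number of members lower in neutrophil-like cells was 0 in place of 1 with size factors and with the cells of highest doublet score (5% per library) left out, and in macrophage-like cells 1 in place of 0 with cells thinned. Beyond what these settings do by construction, the cause was not tested. Over genotype comparisons the share of all genes past 1.5-fold was 0.928 to 1.92% higher and 2.03 to 3.68% lower, and with at least 500 UMIs asked of a gene 0.404 to 1.22% and 0.859 to 1.48%. Over comparisons of days it was 14.5 to 55.6% higher and 4.17 to 10.2% lower, and without a filter 12.3 to 39.3% and 2.32 to 7.48%. The alternatives without the sub-cluster led by Retnlg, without shared barcodes and without cells holding mast cell markers were chosen after seeing the data, and all 16 ratios stayed past 1.5-fold under each.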

Other observations

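Erythrocyte markers, 4 genes all detected, summed to 1312 CPM in neutrophil-like cells of Angptl4-/- at 5 dpw and to 0.254 to 3.71 in the other 3 libraries. In the sub-cluster led by Retnlg the mast cell markers were at 12196 CPM in the same library, where Cd63 was at 431 CPM with and 235 without the 3 cells that held at least 3 such UMIs. In Angptl4+/+ at 5 dpw it was at 407 CPM with and 380.4 without 4 such cells.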
